A study of Mus musculus with 8 samples.

Results

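The 45 genes described here encode the enzymes and carriers of central carbon metabolism, from the phosphorylation of glucose through glycolysis to pyruvate and lactate, through the pentose phosphate pathway, and from pyruvate through the pyruvate dehydrogenase complex into the TCA cycle. They were chosen by gene symbol as members of these pathways, a rule that uses no measured value. Earlier results of these data were known when the list was drawn up. All 45 had a row among the 55385 genes counted, and 42 were among the 14929 genes with enough reads to be tested. Gapdh, Pdk2 and Idh2 were not tested for lack of reads.

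Polyadenylated RNA was measured in pools of mouse oocytes of C57BL/6 x 129/SvJ background obtained in vitro by way of embryonic stem cells (ESCs), to compare oocytes of a sex-converted and a native XX line and their stages of maturation. The groups were sex-converted XX oocytes at metaphase II (MII, the mature egg), sex-converted XX oocytes at the germinal vesicle stage (GV, fully grown and not yet matured), native XX oocytes at MII and native XX oocytes at GV, with 2 libraries each that the labels call biological duplicates. Both stem cell lines carried the Blimp1-mVenus and Stella-ECFP reporters, and in both lines the germ cells were grown with somatic cells of female gonads from embryonic day 12.5. GV oocytes were taken on day 11 of growth culture, and MII oocytes after a further 16 h of maturation, in pools of 35 to 58 oocytes at MII and 31 to 158 at GV. Per the series' title, the sex-converted cells came from male mice. Each kind of line was represented by 1 stem cell line, so that conversion and any other difference between these lines cannot be told apart.

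Glycolysis splits glucose into pyruvate in the cytosol, and lactate dehydrogenase converts pyruvate and lactate into each other. The pentose phosphate pathway draws on the same sugar phosphates to make NADPH and ribose. In mitochondria, the pyruvate dehydrogenase complex turns pyruvate into acetyl-CoA, which the TCA cycle oxidises. Mouse oocytes are known to use little glucose by glycolysis themselves and to take up pyruvate made by the surrounding cumulus cells, and they are known for high activity of lactate dehydrogenase and of glucose-6-phosphate dehydrogenase. During maturation transcription is largely silent, and stored mRNAs are degraded or have their poly(A) tails shortened or lengthened.

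Libraries held 10306471 to 14999003 reads assigned to genes, and log CPM (reads per gene over the TMM-scaled library size) correlated at 0.961 to 0.981 between libraries of the same stage and at 0.759 to 0.796 otherwise. The 15 oocyte markers summed to 19090 to 22870 CPM in MII libraries and 15270 to 18040 CPM in GV libraries. The most abundant at MII were Gdf9 (7847 to 9599 CPM, against 3791 to 4361 at GV) and Oosp1 (4130 to 5163 CPM, against 685 to 846). In both lines 5 of the 15 were called higher at MII and 8 lower, beside 26.9% and 32% of all genes tested. Their median log2 fold changes were -0.76 in sex-converted and -1.16 in native oocytes. The 20 granulosa and cumulus markers summed to 1022 to 1163 CPM at MII and to 300.1 to 355.6 CPM at GV. Most of this sum was Serpine2, at 8597 to 9499 reads in MII libraries and 3659 to 5856 reads in GV libraries. Of the 13 of these markers that were tested, Serpine2, Cyp19a1, Kitl and Has2 were called higher at MII in both lines and Fshr lower. Cyp19a1 had 429 to 665 reads in MII libraries and 208 to 349 in GV libraries, and Fshr had none at MII and 7 to 24 at GV. Amh, Areg and Ereg had at most 3 reads in any library. The 13 stromal and theca markers summed to 4.47 to 22.5 CPM at MII and 1.75 to 2.44 CPM at GV. Of the 6 of these that were tested, Vim, Acta2 and Pdgfrb were called higher at MII in both lines and none lower. In GV libraries Acta2 had 0 reads, Pdgfrb at most 3 and Vim at most 4. The 9 endothelial and blood markers summed to 202.0 to 287 CPM at MII and 76.6 to 112 CPM at GV. Most of the latter sum was Pecam1, at 1870 to 2884 reads in MII libraries and 837 to 1742 in GV libraries. Pecam1 was called higher at MII in both lines, Tek lower in both, and Kdr higher in sex-converted oocytes only. Cdh5 and the globins had at most 3 reads in any library. Native MII replicate 1 had 175 reads of Vim, 85 of Vcan and 145 of Fst, against at most 67, 16 and 41 in any other library. Inha, Inhba, Cyp19a1, Ptgs2, Npr2, Tnfaip6, Pdgfrb and Pecam1 were also highest there. Of these, Inha had 84 reads, Inhba 56, Cyp19a1 665 and Pecam1 2884. The stromal and theca sum (22.5 CPM) and the endothelial and blood sum (287 CPM) were highest there too. Serpine2, Kitl, Has2 and Acta2 were among the markers not highest in this library. Its granulosa and cumulus sum was 1040 CPM, against 1163 CPM in sex-converted MII replicate 1, and it had 5 reads of Acta2, against 35. The part of somatic RNA in the results below was not tested, and values without native MII replicate 1 are given where they differ.

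Carbon metabolism genes moved in both directions between the stages, and most calls were shared by both lines. In sex-converted oocytes 11 of the 42 tested members were higher at MII than at GV and 18 were lower, and in native oocytes 10 were higher and 18 were lower (edgeR's quasi-likelihood test, adjusted p under 0.05). Both lines shared 10 higher members, namely Hk2, Pgam1, Taldo1, Mpc1, Pdk1, Pdp1, Cs, Idh1, Suclg2 and Mdh1. They shared 17 lower members, namely Gpi1, Pfkm, Pfkp, Aldoa, Tpi1, Eno1, Pkm, G6pdx, Tkt, Mpc2, Pdha1, Dld, Idh3b, Idh3g, Ogdh, Dlst and Mdh2. Pdhx was called higher and Pgd lower in sex-converted oocytes only, and Fh1 lower in native oocytes only, and 12 tested members were called in neither line.

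Calls were as common among all genes, so these counts do not set the members apart. Of all 14929 genes tested, 65.5% were called in sex-converted oocytes (29.3% higher and 36.2% lower) and 65.2% in native oocytes (29.6% higher and 35.7% lower). Across both lines, 26.9% of all genes were higher and 32% were lower. All 4 MII libraries lay above all 4 GV libraries for 12 members and below them for 20, as they did for 32.2% and 40.2% of all genes. The median log2 fold change of MII over GV over the members was -0.56 in sex-converted and -0.49 in native oocytes, beside -0.35 and -0.31 over all genes. Scaled by library totals alone, the all-gene medians were -1.28 and -1.22, and the members then divided into 6 higher and 27 lower in sex-converted oocytes and 7 higher and 29 lower in native oocytes. Hk2, Taldo1, Pdk1, Pdp1, Idh1 and Suclg2 were the 6 higher in both lines on that scale, and all 17 lower members were lower there too. All changes are thus relative to other mRNAs of the pool. In such pools, less mRNA per oocyte, a shorter poly(A) tail that escapes the selection of polyadenylated RNA, and a different mix of cells cannot be told apart.

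**Figure D1:**
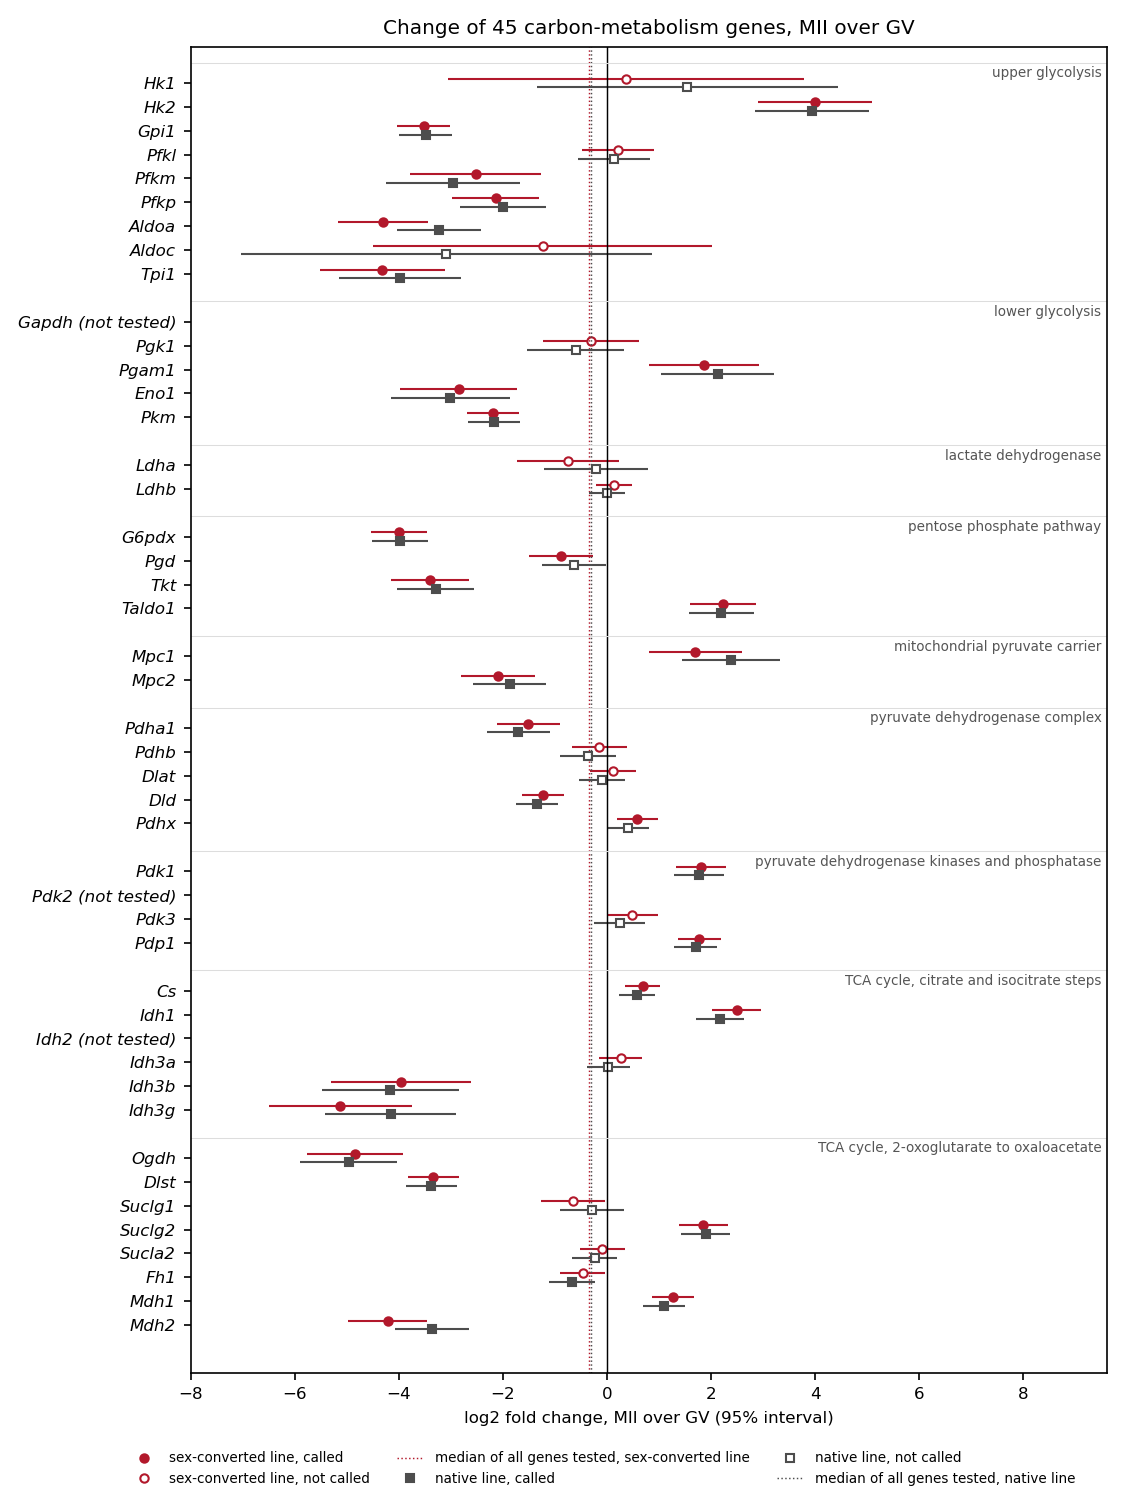
Log2 fold change of MII over GV (x axis) for each of the 45 genes, by role, in the sex-converted line (circles) and the native line (squares), with 95% intervals. Filled symbols passed an adjusted p under 0.05, and the dotted lines mark the medians of all genes tested, -0.35 and -0.31. Within most groups of enzymes some members lie far to the left and others to the right or near 0.

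The 3′ ends of the mRNAs were read for letters that are known to bear on poly(A) tails in maturing oocytes. The letters TTTTAT or TTTTAAT, here called CPE letters after the cytoplasmic polyadenylation element, and the polyadenylation hexamers AATAAA or ATTAAA were searched on the transcript's own strand in the last 100 bases of 1 annotated protein-coding transcript per gene. The CPE letters were found in 3 of the 10 members higher in both lines (Cs, Idh1 and Taldo1), in 2 of the 17 lower in both lines (Dld and Tkt), and in 2 of the other 15 (Fh1 and Pdk3). Among all tested genes with such a transcript they were found in 33.3% of those higher in both lines (1212 of 3644), in 9.91% of those lower in both lines (417 of 4206) and in 19.2% overall (2410 of 12544). The members thus held them at shares near those of all genes with the same call. A match describes these letters only and is not a site shown to be in use. The 30-base stretches of Cs, Taldo1, Dld and Tkt, members with CPE letters that were called in both lines, are given first, followed by those of Ldhb, the most abundant member, and G6pdx, which fell strongly, neither of which has CPE letters in its last 100 bases. CPE letters and hexamers are in capitals, the sequences are from GRCm38, and each runs 5′ to 3′ on the strand named.
Cs, higher at MII, chr10:128362444-128362473, plus strand: taaaATTAAAaatAATAAAtgtTTTTATta
Taldo1, higher at MII, chr7:141402900-141402929, plus strand: gggatggatcataggattctgaTTTTATgt
Dld, lower at MII, chr12:31331301-31331330, minus strand: atctccttggcttagtaatgtTTTTAATct
Tkt, lower at MII, chr14:30574639-30574668, plus strand: ctgtacccaaaagtctacaggcTTTTATtg
Ldhb, called in neither line, chr6:142490265-142490294, minus strand: ttgcactaggagctcctgatcaAATAAAgt
G6pdx, lower at MII, chrX:74409498-74409527, minus strand: attttcctatcccaaccctgccATTAAAtc
In Cs both hexamers precede the CPE letters, which begin 14 bases before the annotated end. In Taldo1, Dld and Tkt they begin 47, 33 and 60 bases from the end.

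Among the enzymes of upper glycolysis, from glucose to the triose phosphates, Hk2 rose while 5 of the 9 genes, all of later steps, fell in both lines. Hexokinase phosphorylates glucose, and its gene Hk2 (chromosome 6, 82725025 to 82774454, minus strand) was at 12.3 and 10.6 CPM in sex-converted MII libraries, against 0.894 and 0.536 CPM in sex-converted GV libraries. Native libraries gave 10.6 and 16.1 CPM at MII, against 0.501 and 1.27 CPM at GV. All MII libraries lay above all GV libraries, and Hk2 showed the largest rise of any member in both lines, with log2 fold changes of 4.00 in sex-converted oocytes (SE 0.50, adjusted p = 3.71e-05) and 3.93 in native oocytes (SE 0.50, adjusted p = 3.96e-05). Without native GV replicate 2, the native value was 4.71. Hk1, the other hexokinase gene measured, was listed at 0.766 and 0 CPM in sex-converted MII libraries and 0.0596 and 0.487 CPM in sex-converted GV libraries, and at 2.67 and 0.116 CPM in native MII and 0.668 and 0.281 CPM in native GV libraries. Its groups overlapped, and it was called in neither line, its sex-converted log2 fold change being 0.37 (SE 1.55) as scaled here and -0.53 with library totals alone.

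Of the genes of the following steps, which carry the sugar phosphate to the triose stage, Gpi1, Pfkm, Pfkp, Aldoa and Tpi1 fell in both lines, while Pfkl and Aldoc were called in neither. Gpi1, which converts glucose phosphate to fructose phosphate, was at 8.10 and 7.89 CPM in sex-converted MII libraries against 95.4 and 89.2 CPM at GV, and at 8.12 and 8.33 CPM in native MII libraries against 99.3 and 84.9 CPM at GV. The replicates differed little beside the gap between stages, and the log2 fold changes were -3.53 in sex-converted (SE 0.23, adjusted p = 7.29e-07) and -3.48 in native oocytes (SE 0.23, adjusted p = 7.21e-07). Aldoa, an aldolase that cleaves the fructose bisphosphate, was at 7.77 and 4.57 CPM in sex-converted MII libraries against 125 and 119 CPM at GV. Native libraries had 16.8 and 7.29 CPM at MII against 119 and 108 CPM at GV. Its log2 fold changes were -4.31 (SE 0.39, adjusted p = 4.18e-06) and -3.23 (SE 0.37, adjusted p = 1.89e-05), and the native value was -3.97 without native MII replicate 1, the library with more reads of Vim, Vcan and Fst. Tpi1, triose phosphate isomerase, was at 5.15 and 2.19 CPM in sex-converted MII libraries against 80.6 and 64.8 CPM at GV, and at 6.78 and 1.504 CPM in native MII libraries against 62.5 and 71.3 CPM at GV. Its log2 fold changes were -4.32 (SE 0.54, adjusted p = 4.01e-05) and -3.98 (SE 0.53, adjusted p = 6.35e-05). They came to -5.05 without sex-converted MII replicate 1, to -5.48 without native MII replicate 1 and to -3.33 without native MII replicate 2. Aldoc, a second aldolase, stayed at or below 1.79 CPM in every library and was called in neither line.

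Phosphofructokinase, which commits sugar to glycolysis, is made from 3 genes that did not move alike. Pfkl was at 27.7 and 25.0 CPM in sex-converted MII libraries against 28.8 and 17.0 CPM at GV, and at 29.4 and 24.3 CPM in native MII libraries against 19.4 and 29.97 CPM at GV. The stages overlapped, and the log2 fold changes of 0.20 and 0.13 had 95% intervals of -0.49 to 0.90 and -0.57 to 0.82, and stood at -0.74 and -0.79 with library totals alone. Pfkm fell by 2.52 on the log2 scale in sex-converted and by 2.96 in native oocytes, and Pfkp fell by 2.14 and by 2.00. The sex-converted value of Pfkm rests on 0.438 and 2.47 CPM at MII, and was -1.80 without replicate 1 and -4.27 without replicate 2 of that group. Per kb of exon, Pfkl made 91.0% and 80.7% of the family's reads in sex-converted MII libraries against 57.8% and 39.5% at GV, and 84.5% and 87.9% in native MII libraries against 41.1% and 50.9% at GV. Each MII library had a higher share of Pfkl than each GV library. The shares were not tested.

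In lower glycolysis, which yields ATP and pyruvate, 2 of the 4 tested members fell and 1 rose. Pkm, pyruvate kinase, which makes pyruvate, was at 68.1 and 53.4 CPM in sex-converted MII libraries against 313 and 243 CPM at GV. Native libraries gave 80.9 and 58.8 CPM at MII against 301 and 329 CPM at GV, so the stages stood apart in each line. For Pkm the log2 fold changes were -2.19 in sex-converted (SE 0.23, adjusted p = 1.08e-05) and -2.17 in native oocytes (SE 0.23, adjusted p = 1.15e-05). It was the most abundant gene of lower glycolysis per kb of exon in every library. Eno1, an enolase, was at 3.83 and 2.00 CPM in sex-converted MII libraries against 26.2 and 15.7 CPM at GV, and at 3.92 and 1.16 CPM in native MII libraries against 18.4 and 23.6 CPM at GV. Its log2 fold changes were -2.85 (SE 0.51, adjusted p = 5.24e-04) and -3.02 (SE 0.52, adjusted p = 3.85e-04), the native one being -4.18 without native MII replicate 1.

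Pgam1, a phosphoglycerate mutase, went against its neighbours. It was at 9.85 and 8.75 CPM in sex-converted MII libraries against 2.74 and 2.39 CPM at GV, and at 11.6 and 6.60 CPM in native MII libraries against 1.11 and 3.10 CPM at GV. All MII libraries were above all GV libraries, and the log2 fold changes were 1.86 (SE 0.48, adjusted p = 5.57e-03) and 2.13 (SE 0.49, adjusted p = 2.84e-03). Without native GV replicate 2 the native value was 3.01, and with library totals alone both calls were lost, at 0.92 and 1.21. Pgk1, phosphoglycerate kinase, was at 7.06 to 16.0 CPM at MII and 11.5 to 21.0 CPM at GV over both lines and was called in neither.

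Gapdh, often taken as a reference gene in other cells, had almost no reads here. It had 4 reads in all in sex-converted MII libraries and 6 in sex-converted GV libraries, with exact 95% Poisson intervals of 1.09 to 10.2 and 2.20 to 13.1. Native libraries had 1 read at MII (interval 0.0253 to 5.57) and 4 at GV (interval 1.09 to 10.2), and these intervals cover counting error only. Of the 75-base stretches of its mRNA, 80.3% also occur in at least 1 of 118 other annotated genes, which together held 118 to 143 reads per library. The sources used here do not say how reads with more than 1 match were counted, so the level of Gapdh mRNA is unknown. The same stretch sharing was 67.5% for Pgk1, 65.4% for Eno1 and 40.6% for Pgam1, and the copies of each held at most 42 reads per library, so levels of these genes are uncertain. Pkm shared 19.6% of its stretches with copies that held 45 to 453 reads.

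Lactate dehydrogenase was the most abundant enzyme of the set at both stages, through Ldhb, and did not change detectably. Ldhb, whose product favours the conversion of lactate to pyruvate, lies on chromosome 6 from 142490249 to 142507957 on the minus strand. It was at 2696 and 2348 CPM in sex-converted MII libraries against 2366 and 2225 CPM at GV, and at 2683 and 2410 CPM in native MII libraries against 2239 and 2844 CPM at GV. The groups overlapped. The log2 fold changes were 0.14 (95% interval -0.21 to 0.48) in sex-converted and 0.00 (95% interval -0.34 to 0.35) in native oocytes, and with library totals alone they were -0.80 and -0.91. Per kb of exon Ldhb averaged 1606 CPM at sex-converted MII, 1462 at sex-converted GV, 1622 at native MII and 1619 at native GV. The member next in level stood at 92.1 CPM per kb (Taldo1) in sex-converted MII, 169 (G6pdx) in sex-converted GV, 101 (Taldo1) in native MII and 185 (G6pdx) in native GV. Ldha, the form that prevails in muscle, was at 6.24 and 6.09 CPM in sex-converted MII libraries against 12.9 and 7.89 CPM at GV, and at 6.88 and 2.66 CPM in native MII libraries against 6.24 and 4.85 CPM at GV. It was called in neither line, and Ldhb made at least 99.7% of the pair per kb of exon in every library.

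**Figure D2:**
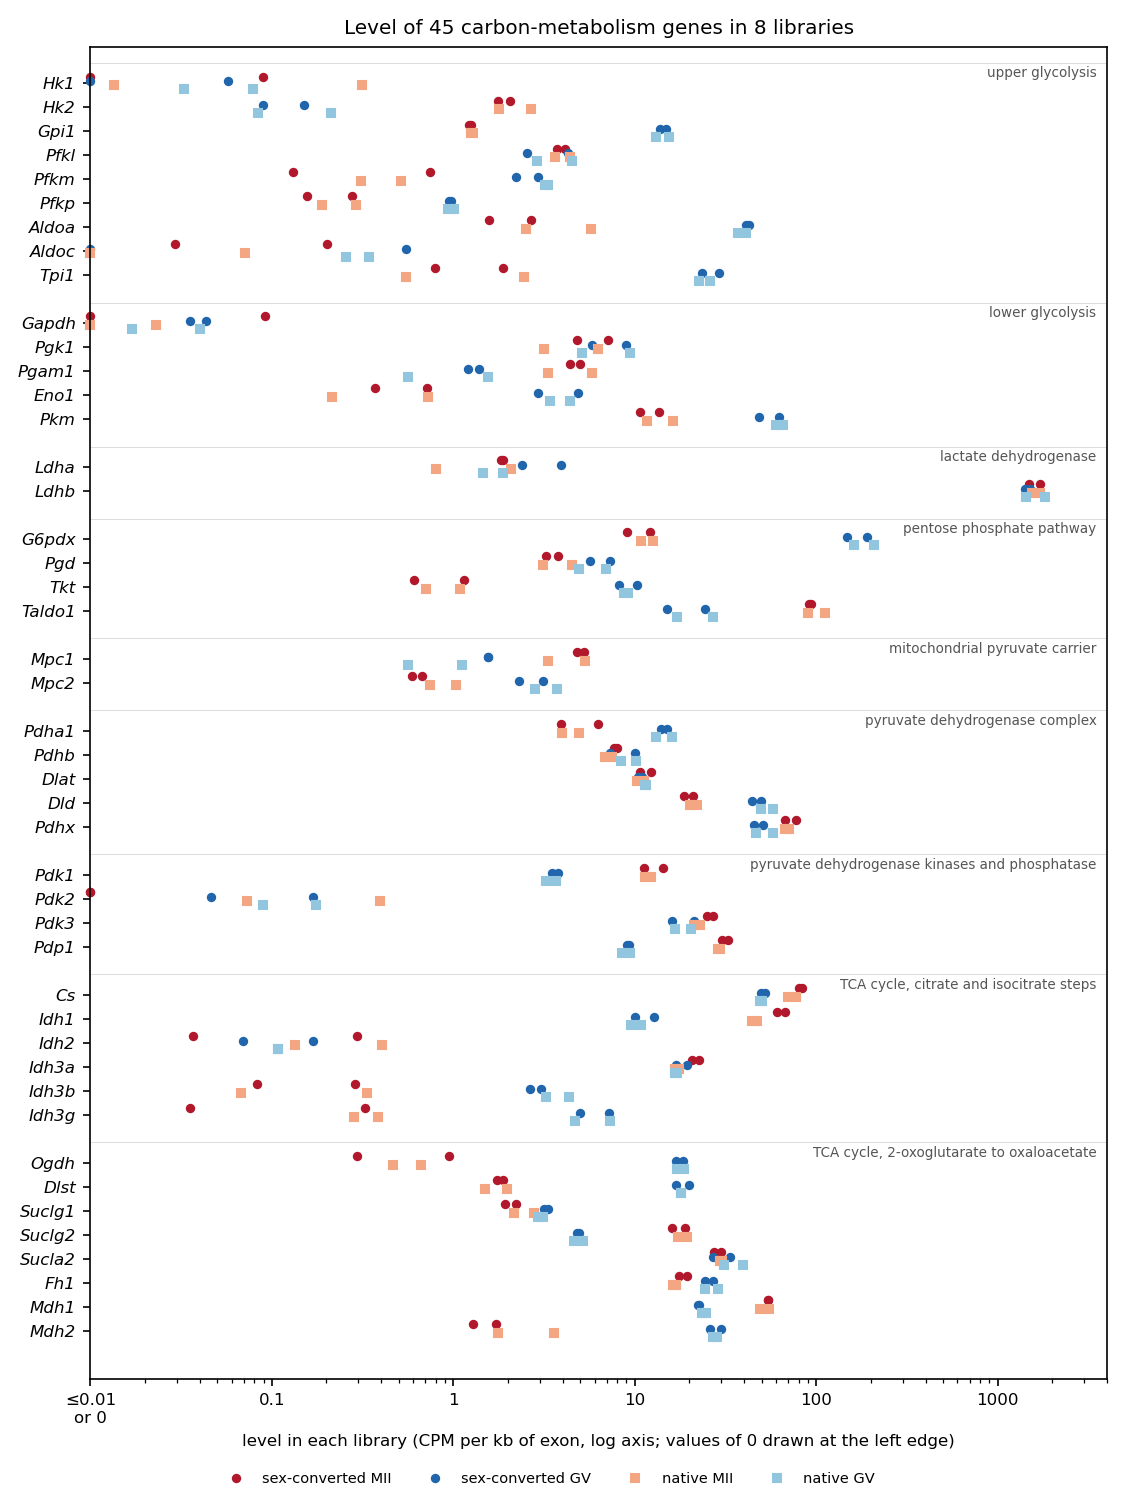
Level of each of the 45 genes in each of the 8 libraries, in CPM per kb of exon on a log axis, by role, in MII (red shades) and GV (blue shades) libraries of the sex-converted (circles) and native (squares) lines. Ldhb lies between 1417 and 1812 in every library, and G6pdx lies between 9.08 and 12.6 in MII libraries and between 148 and 209 in GV libraries.

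The pentose phosphate pathway showed the same division. G6pdx, glucose-6-phosphate dehydrogenase, which opens the oxidative branch and makes NADPH, lies on chromosome X from 74409483 to 74429194 on the minus strand. It was at 37.2 and 28.0 CPM in sex-converted MII libraries against 455 and 588 CPM at GV, and at 38.7 and 33.3 CPM in native MII libraries against 644 and 495 CPM at GV. Every MII library was far below every GV library. The log2 fold changes were -4.00 in sex-converted (SE 0.24, adjusted p = 5.81e-07) and -3.98 in native oocytes (SE 0.24, adjusted p = 5.03e-07). Exons of genes on the other strand overlap 13.6% of its merged exons, and the sources used here do not say whether reads were counted by strand. Pgd, the other dehydrogenase of that branch, fell by 0.88 in sex-converted oocytes (SE 0.28, adjusted p = 0.0168), while its native value of -0.63 (SE 0.28, adjusted p = 0.0675) did not pass. Its sex-converted call was lost without sex-converted MII replicate 2 (-0.78) or without sex-converted GV replicate 1 (-0.69). The native change passed without native MII replicate 1 (-0.94) or native GV replicate 1 (-0.84).

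In the non-oxidative branch, which links pentoses to glycolysis, transketolase and transaldolase moved apart. Tkt, transketolase, was at 8.43 and 4.47 CPM in sex-converted MII libraries against 75.9 and 60.0 CPM at GV, and at 8.02 and 5.21 CPM in native MII libraries against 63.8 and 67.1 CPM at GV. Taldo1, transaldolase, was at 197 and 203 CPM in sex-converted MII libraries against 53.1 and 32.6 CPM at GV, and at 242 and 195 CPM in native MII libraries against 37.0 and 58.3 CPM at GV. Neither gene had overlapping stages. For Tkt the log2 fold changes were -3.40 (SE 0.34, adjusted p = 7.81e-06) and -3.30 (SE 0.34, adjusted p = 9.44e-06), and those of Taldo1 were 2.22 (SE 0.29, adjusted p = 4.56e-05) and 2.20 (SE 0.29, adjusted p = 4.97e-05). Taldo1 was the second most abundant member per kb at MII in both lines, and it ranked 13 at GV in both.

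The mitochondrial pyruvate carrier is a complex of 2 proteins, and their mRNAs moved in opposite directions. Mpc1 was at 9.96 and 10.9 CPM in sex-converted MII libraries against 3.22 and 3.22 CPM at GV, and at 11.1 and 6.94 CPM in native MII libraries against 1.17 and 2.32 CPM at GV. Mpc2 was at 4.93 and 4.38 CPM in sex-converted MII libraries against 23.0 and 16.9 CPM at GV, and at 7.64 and 5.44 CPM in native MII libraries against 20.8 and 27.4 CPM at GV. At MII the Mpc1 value exceeded the Mpc2 value in every library, and at GV the reverse held in every library, also per kb of exon. For Mpc1 the log2 fold changes were 1.70 (SE 0.40, adjusted p = 3.38e-03) and 2.38 (SE 0.43, adjusted p = 5.23e-04), and those of Mpc2 were -2.10 (SE 0.33, adjusted p = 1.84e-04) and -1.87 (SE 0.32, adjusted p = 3.60e-04). With library totals alone the sex-converted rise of Mpc1 did not pass, at 0.76. Mpc1 shares 24.3% of its 75-base stretches with 1 other gene that held 13 to 97 reads, and 23.1% of its merged exons overlap exons on the other strand.

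Within the pyruvate dehydrogenase complex, the alpha subunit of E1 and the shared E3 component fell in both lines. Pdhx was called higher in sex-converted oocytes, and Pdhb and Dlat were called in neither line. Pdha1, the E1 alpha subunit that is switched off by phosphorylation, was at 14.6 and 23.4 CPM in sex-converted MII libraries against 56.5 and 52.3 CPM at GV, and at 18.4 and 14.8 CPM in native MII libraries against 48.6 and 60.1 CPM at GV. The stages stood apart, with log2 fold changes of -1.52 (SE 0.27, adjusted p = 5.58e-04) and -1.71 (SE 0.28, adjusted p = 2.58e-04). Exons of genes on the other strand overlap 16.1% of the merged exons of Pdha1. Dld, the E3 dihydrolipoamide dehydrogenase that also serves the 2-oxoglutarate dehydrogenase complex, was at 77.5 and 69.1 CPM in sex-converted MII libraries against 182 and 163 CPM at GV. In native libraries it was at 81.1 and 73.9 CPM at MII against 212 and 183 CPM at GV. Its log2 fold changes were -1.23 (SE 0.19, adjusted p = 1.53e-04) and -1.35 (SE 0.19, adjusted p = 8.08e-05).

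Pdhb, the E1 beta subunit, and Dlat, the E2 component, were called in neither line. Pdhb had a log2 fold change of -0.15 in sex-converted oocytes (95% interval -0.68 to 0.39) and of -0.37 in native oocytes (interval -0.90 to 0.17). Dlat had 0.11 in sex-converted oocytes (interval -0.34 to 0.55), or -0.83 with library totals alone, and -0.09 in native oocytes (interval -0.53 to 0.35). Pdhx, which anchors E3 to the complex, was the most abundant of the 5 components per kb of exon at MII in both lines, and close to Dld at GV. It was at 264 and 303 CPM in sex-converted MII libraries against 201 and 178 CPM at GV, and at 279 and 266 CPM in native MII libraries against 184 and 227 CPM at GV. Its log2 fold change of 0.58 passed in sex-converted oocytes (SE 0.18, adjusted p = 0.0145), and that of 0.40 did not in native oocytes (SE 0.18, adjusted p = 0.0677). The sex-converted call was lost without sex-converted MII replicate 2 (0.48) or sex-converted GV replicate 2 (0.53), the native change passed without native GV replicate 2 (0.56), and with library totals alone the values were -0.36 and -0.51.

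Of the regulators of the complex, a kinase and a phosphatase, Pdk1 and Pdp1, rose in both lines, Pdk3 was called in neither and Pdk2 was not tested. Pdk1, a kinase that switches the complex off, was at 87.3 and 111 CPM in sex-converted MII libraries against 27.3 and 29.4 CPM at GV, and at 88.5 and 96.2 CPM in native MII libraries against 25.3 and 28.8 CPM at GV. Pdp1, a phosphatase that switches it on, was at 146 and 137 CPM in sex-converted MII libraries against 42.0 and 40.6 CPM at GV, and at 133 and 130.0 CPM in native MII libraries against 42.5 and 38.6 CPM at GV. Replicates lay close together and stages did not overlap. The log2 fold changes were 1.80 (SE 0.22, adjusted p = 2.88e-05) and 1.77 (SE 0.22, adjusted p = 3.27e-05) for Pdk1, and 1.77 (SE 0.19, adjusted p = 1.22e-05) and 1.70 (SE 0.19, adjusted p = 1.65e-05) for Pdp1. Pdk3, the kinase gene with the highest level per kb of exon, was at 68.8 and 64.1 CPM in sex-converted MII libraries against 41.0 and 54.0 CPM at GV, and at 54.4 and 58.4 CPM in native MII libraries against 52.4 and 42.9 CPM at GV. Its MII libraries lay just above its GV libraries, and it was called in neither line, with log2 fold changes of 0.48 (95% interval -0.01 to 0.97) and 0.24 (95% interval -0.25 to 0.74), and of -0.45 and -0.66 with library totals alone. Pdk1 made 29.5% and 36.3% of the kinase family per kb of exon in sex-converted MII libraries against 17.8% and 15.2% at GV, and 34.5% and 35.1% in native MII libraries against 13.6% and 18.03% at GV. Pdk2 had 0 reads in the sex-converted MII libraries (exact 95% Poisson interval up to 3.69), 12 in sex-converted GV, 15 in native MII and 14 in native GV libraries.

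**Figure D3:**
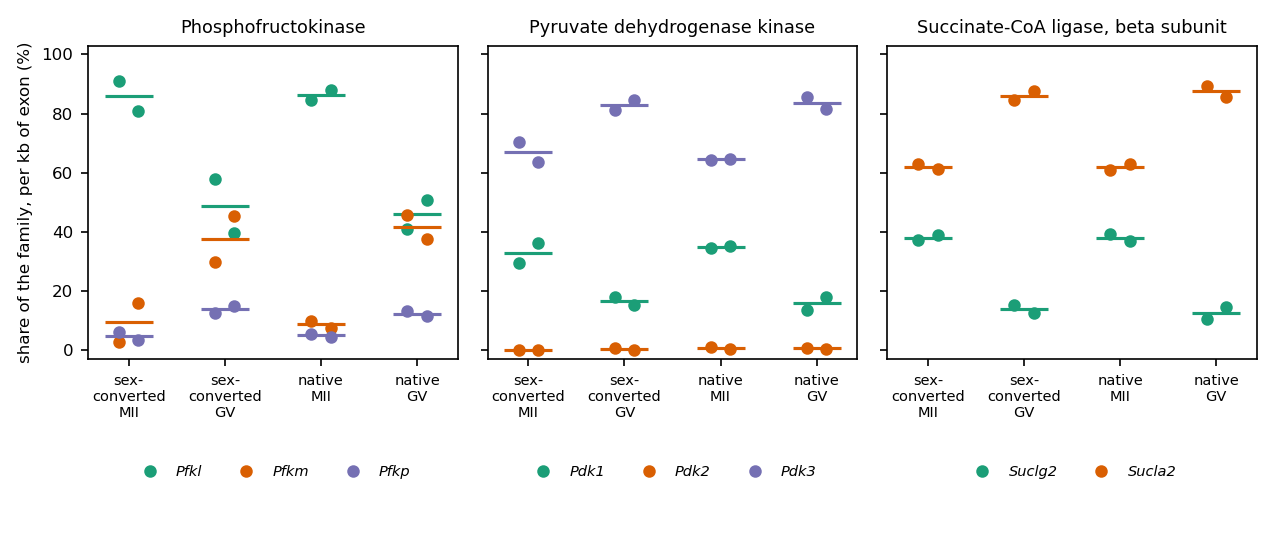
Share of each gene within its family in each library, per kb of exon (y axis, percent), for phosphofructokinase, pyruvate dehydrogenase kinase and the beta subunit of succinate-CoA ligase. Points are libraries and bars are means of 2. In both lines the shares of Pfkl, Pdk1 and Suclg2 are higher at MII than at GV.

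In the TCA cycle, which starts when citrate synthase joins acetyl-CoA to oxaloacetate, the citrate and isocitrate steps split sharply. Cs, citrate synthase, was at 483 and 462 CPM in sex-converted MII libraries against 301 and 287 CPM at GV, and at 447 and 404 CPM in native MII libraries against 282 and 290 CPM at GV. Its stages did not overlap. The log2 fold changes were 0.68 (SE 0.16, adjusted p = 2.57e-03) and 0.57 (SE 0.16, adjusted p = 7.29e-03), but -0.25 and -0.34 with library totals alone, and the native call was lost without native MII replicate 1 (0.49). Idh1, the cytosolic isocitrate dehydrogenase that makes NADPH, was at 187 and 168 CPM in sex-converted MII libraries against 35.4 and 27.8 CPM at GV, and at 123 and 131 CPM in native MII libraries against 30.2 and 26.4 CPM at GV. The stages lay far apart, with log2 fold changes of 2.49 (SE 0.21, adjusted p = 2.78e-06) and 2.16 (SE 0.21, adjusted p = 6.56e-06). Idh2, the mitochondrial NADP-dependent form, had 8 reads in sex-converted MII, 12 in sex-converted GV, 14 in native MII and 9 in native GV libraries.

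The NAD-dependent isocitrate dehydrogenase of the cycle is built from alpha, beta and gamma subunits, and the mRNA of the catalytic alpha subunit behaved unlike the others. Idh3a was at 115 and 105 CPM in sex-converted MII libraries against 98.7 and 85.1 CPM at GV, and at 84.3 and 88.9 CPM in native MII libraries against 84.3 and 86.6 CPM at GV. It was called in neither line, with log2 fold changes of 0.26 (95% interval -0.15 to 0.67) and 0.02 (95% interval -0.39 to 0.43), and of -0.68 and -0.89 with library totals alone. Idh3b was at 0.985 and 0.285 CPM in sex-converted MII libraries against 9.001 and 10.5 CPM at GV, and at 1.15 and 0.231 CPM in native MII libraries against 14.9 and 11.1 CPM at GV. Idh3g was at 0.876 and 0.0951 CPM in sex-converted MII libraries against 13.5 and 19.5 CPM at GV, and at 0.764 and 1.04 CPM in native MII libraries against 19.7 and 12.6 CPM at GV. Both were below 1.2 CPM in every MII library and above 8 CPM in every GV library. On the log2 scale the changes were -3.96 (SE 0.61, adjusted p = 1.75e-04) and -4.16 (SE 0.60, adjusted p = 1.07e-04) for Idh3b, and -5.12 (SE 0.62, adjusted p = 3.01e-05) and -4.16 (SE 0.57, adjusted p = 7.27e-05) for Idh3g. With so few reads at MII their sizes depend on single libraries. In sex-converted oocytes, Idh3b was at -5.06 without MII replicate 1 and -3.29 without MII replicate 2, and Idh3g at -7.32 and -4.22. In native oocytes, Idh3b was at -5.77 without MII replicate 1 and -3.52 without MII replicate 2.

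From 2-oxoglutarate to oxaloacetate the 8 members included 2 that rose and 3 that fell in both lines. Ogdh, the E1 component of the 2-oxoglutarate dehydrogenase complex, was at 5.15 and 1.62 CPM in sex-converted MII libraries against 100.0 and 91.99 CPM at GV, and at 3.63 and 2.55 CPM in native MII libraries against 102 and 93.0 CPM at GV. Dlst, its E2 component, was at 17.95 and 16.7 CPM in sex-converted MII libraries against 190 and 162 CPM at GV, and at 18.9 and 14.2 CPM in native MII libraries against 173 and 173 CPM at GV. Together with Dld, all 3 mRNAs of this complex were thus lower at MII in both lines. The log2 fold changes of Ogdh were -4.85 (SE 0.42, adjusted p = 3.00e-06) and -4.97 (SE 0.42, adjusted p = 2.68e-06), and those of Dlst were -3.34 (SE 0.22, adjusted p = 8.31e-07) and -3.38 (SE 0.23, adjusted p = 7.49e-07). The sex-converted value of Ogdh was -5.89 without sex-converted MII replicate 1 and -4.22 without replicate 2.

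Succinate-CoA ligase pairs an alpha subunit, Suclg1, with a beta subunit that is either GTP-forming, Suclg2, or ATP-forming, Sucla2. Suclg2 was at 74.6 and 87.1 CPM in sex-converted MII libraries against 22.7 and 22.2 CPM at GV, and at 89.5 and 79.5 CPM in native MII libraries against 21.4 and 24.1 CPM at GV, with log2 fold changes of 1.85 (SE 0.21, adjusted p = 2.19e-05) and 1.89 (SE 0.21, adjusted p = 1.88e-05). Sucla2 was called in neither line, at 109 to 120 CPM at MII and 108 to 157 CPM at GV, and neither was Suclg1. Per kb of exon, Suclg2 made 37.2% and 38.8% of the beta subunits in sex-converted MII libraries against 15.3% and 12.5% at GV, and 39.1% and 36.9% in native MII libraries against 10.5% and 14.4% at GV. Suclg2 shares 16.0% of its 75-base stretches with 1 gene that held 68 to 235 reads. Fh1, fumarase, was at 65.8 and 59.7 CPM in sex-converted MII libraries against 91.4 and 82.4 CPM at GV, and at 57.2 and 55.2 CPM in native MII libraries against 82.4 and 97.7 CPM at GV. MII over GV it gave log2 fold changes of -0.47 (SE 0.20, adjusted p = 0.0556) in sex-converted oocytes, which did not pass, and -0.68 (SE 0.20, adjusted p = 0.0110) in native oocytes, a call lost without native MII replicate 2 (-0.68) or native GV replicate 2 (-0.55).

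The 2 malate dehydrogenases, of cytosol and mitochondria, moved in opposite directions. Mdh1, the cytosolic form, was at 139 and 140 CPM in sex-converted MII libraries against 57.3 and 57.9 CPM at GV, and at 141 and 126 CPM in native MII libraries against 63.7 and 60.4 CPM at GV. Mdh2, the mitochondrial form that closes the cycle, was at 6.13 and 4.57 CPM in sex-converted MII libraries against 92.04 and 107 CPM at GV, and at 12.8 and 6.25 CPM in native MII libraries against 102 and 96.2 CPM at GV. Per kb of exon, Mdh1 was thus above Mdh2 in every MII library and below it in every GV library. Log2 fold changes came to 1.27 (SE 0.18, adjusted p = 1.08e-04) and 1.10 (SE 0.18, adjusted p = 3.01e-04) for Mdh1 (0.34 and 0.19 with library totals alone, neither of which passed), and -4.22 (SE 0.34, adjusted p = 2.02e-06) and -3.37 (SE 0.32, adjusted p = 6.16e-06) for Mdh2. Without native MII replicate 1, the native value of Mdh2 was -4.00.

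Summed levels by group are given for comparison with the single genes. The 9 genes of upper glycolysis summed to 66.6 and 54.9 CPM in sex-converted MII libraries against 352 and 314 CPM at GV, and to 80.02 and 61.5 CPM in native MII libraries against 326 and 321 CPM at GV. The kinases and phosphatase of pyruvate dehydrogenase summed to 302 and 311 CPM in sex-converted MII libraries against 111 and 124 CPM at GV, and to 278 and 285 CPM in native MII libraries against 121 and 111 CPM at GV. The later TCA steps, the pentose phosphate genes and lower glycolysis summed to less in every MII library than in every GV library, also with library totals alone. The group of citrate and isocitrate steps holds Idh3b and Idh3g, which fell, and also the cytosolic Idh1. Idh1 averaged 178 CPM at MII against 31.6 at GV in sex-converted oocytes, and 127 against 28.3 in native oocytes. The citrate and isocitrate steps summed to 788 and 736 CPM in sex-converted MII libraries against 458 and 430 CPM at GV. In native libraries they summed to 657 and 626 CPM at MII against 431 and 427 CPM at GV. That direction turned with library totals alone, where they came to 577 and 538 CPM in sex-converted MII libraries against 655 and 589 at GV, and to 468 and 454 in native MII libraries against 572 and 589 at GV. All 45 members together summed to 5102 and 4727 CPM in sex-converted MII libraries against 5513 and 5269 CPM at GV, and to 5063 and 4572 CPM in native MII libraries against 5508 and 6019 CPM at GV. With library totals alone the gap was wider, at 3734 and 3454 CPM in sex-converted MII libraries against 7877 and 7210 at GV. Native libraries then gave 3609 and 3322 at MII against 7303 and 8301 at GV. On that scale lactate dehydrogenase and the pyruvate dehydrogenase complex also summed to less in every MII library. Without Ldhb the other 44 summed to 2406 and 2379 CPM in sex-converted MII libraries against 3147 and 3044 CPM at GV, and to 2380 and 2163 CPM in native MII libraries against 3268 and 3175 CPM at GV. These sums are descriptions and were not tested.

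**Figure D4:**
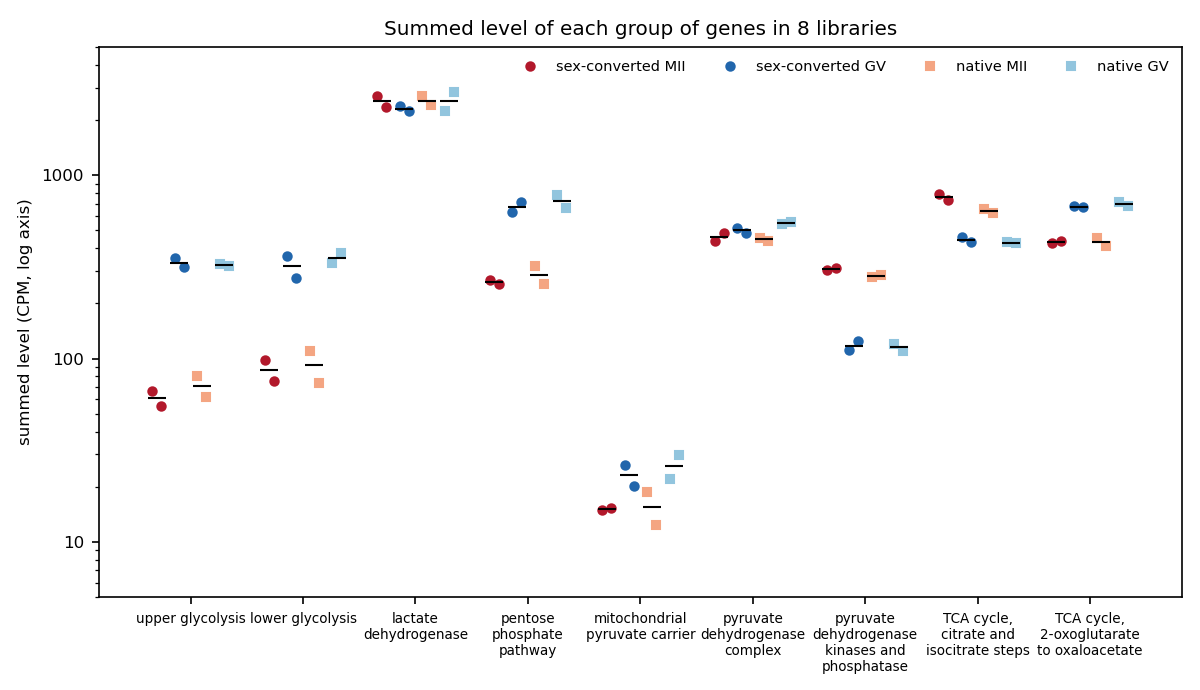
Summed level of the members of each group (y axis, CPM, log axis) in each of the 8 libraries, MII in red shades and GV in blue shades, with bars at the means of 2. Both groups of glycolysis genes sum to less at MII than at GV, and the kinases and phosphatase of pyruvate dehydrogenase to more.

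No member differed detectably between sex-converted and native oocytes. In edgeR's quasi-likelihood test, 0 of 42 members were called at MII and 0 at GV, where 0.0134% of all genes were called at each stage (0.0067% higher and 0.0067% lower), and 0 were called in the line by stage interaction, where 0% of all genes were. DESeq2 also called 0 members in each. At an unadjusted p under 0.05 there were 3 members at MII, 0 at GV and 0 for the interaction, beside 549, 319 and 329 of all 14929 genes. The median absolute log2 difference between lines over the members was 0.15 at MII and 0.11 at GV, beside 0.23 and 0.19 over all genes. The 95% interval of the difference lay within 2-fold either way for 25 members at MII, 33 at GV and 20 for the interaction, and for the others it did not exclude a 2-fold difference.

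The smallest p values between the lines are given by name, though none passed. For sex-converted over native oocytes at MII, the smallest unadjusted p values belonged to Aldoa, with a log2 difference of -0.98 (95% interval -1.81 to -0.16, unadjusted p = 0.0241), Mdh2, at -0.85 (interval -1.58 to -0.11, unadjusted p = 0.0281), and Idh1, at 0.49 (interval 0.04 to 0.93, unadjusted p = 0.0346). All had an adjusted p of 1.0 in edgeR's test. For Aldoa and Mdh2 native MII replicate 1, at 16.8 and 12.8 CPM, was the highest MII library, and it is the library with more reads of Vim, Vcan and Fst. Native MII replicate 2 was at 7.29 and 6.25 CPM, against 7.77 and 4.57 CPM of Aldoa and 6.13 and 4.57 CPM of Mdh2 in the sex-converted MII libraries. At GV the smallest values belonged to Mpc1, Ldha and Dld, with log2 differences of 0.90, 0.90 and -0.20 and unadjusted p of 0.0588, 0.0634 and 0.304. For the interaction they belonged to Aldoa, Mdh2 and Mpc1, with differences of -1.08, -0.85 and -0.69 and unadjusted p of 0.0523, 0.0790 and 0.259.

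Beyond the members, 62 further genes of the same pathways were read, of which 48 were tested. In both lines 16 of these were higher at MII and 23 were lower, beside 26.9% and 32% of all genes. The median log2 fold changes were -1.07 in sex-converted and -1.23 in native oocytes, beside -0.35 and -0.31 over all genes. In glycolysis the strongest rises were of Pfkfb2, which makes and removes the allosteric activator of phosphofructokinase, and of Adpgk, an ADP-dependent glucokinase. Pfkfb2 was at 21.4 and 19.8 CPM in sex-converted MII libraries against 1.19 and 0.341 CPM at GV, and at 17.7 and 19.0 CPM in native MII libraries against 0.947 and 0.704 CPM at GV. The changes on the log2 scale were 4.77 (SE 0.48) and 4.44 (SE 0.48), and the sex-converted value was 5.88 without sex-converted GV replicate 1 and 4.13 without replicate 2. Adpgk had log2 fold changes of 2.27 (SE 0.17) and 2.42 (SE 0.17). Fbp2, a fructose bisphosphatase of gluconeogenesis, fell to 0.657 and 0 CPM in sex-converted MII libraries, against 17.5 and 12.4 CPM at GV, and to 0.668 and 0.231 CPM in native MII libraries, against 13.6 and 17.6 CPM at GV. The sizes of its fitted falls of 5.55 and 5.04 on the log2 scale depend on these few reads, and the fitted values were -10.7 and -4.49 in the sex-converted line without MII replicate 1 or 2 and -6.03 in the native line without MII replicate 1. Pgp, a phosphatase of glycerol and glycolate phosphates, fell by 3.93 and by 2.74, with -3.39 in the native line without native MII replicate 1.

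Outside glycolysis, Rpia, which makes ribose phosphate, rose by 2.73 (SE 0.30) and 2.83 (SE 0.30). Prps2, a ribose phosphate pyrophosphokinase, rose by 1.45 and 2.26 (not passing with library totals alone, at 0.53 and 1.34) and Pgls, of the oxidative branch, fell by 3.43 and by 2.48, but neither gene exceeded 6.08 CPM in any library. The sex-converted call of Prps2 was lost without any 1 of the 4 libraries of that line (1.36 to 1.59), and its native call without native MII replicate 1 (1.63) or native GV replicate 1 (1.73). The sex-converted value of Pgls was -5.46 without MII replicate 1 and -2.56 without MII replicate 2, and its native call was lost without native MII replicate 2 (-2.16) or native GV replicate 2 (-1.32). Lipt1 and Lipt2, of the pathway that supplies the lipoyl group that the E2 components need, fell by 5.14 and by 4.85 in sex-converted oocytes and by 4.89 and by 4.35 in native oocytes. Lipt2 was at -6.10 and -4.13 in the sex-converted line without MII replicate 1 or 2, and Lipt1 at -5.76 in the native line without MII replicate 1. Pdpr, a regulator of the pyruvate dehydrogenase phosphatase, rose by 1.27 and 1.51, and Pdp2, a second phosphatase, by 1.73 and 1.39, and neither passed with library totals alone. The call of Pdp2 was lost in sex-converted oocytes without MII replicate 2 (1.63) or GV replicate 2 (1.31), and in native oocytes without MII replicate 1 (1.53), MII replicate 2 (1.20) or GV replicate 1 (1.11). Of the 12 other TCA cycle genes tested, 10 fell in both lines, beside 32% of all genes, with Sdhd, a membrane anchor of succinate dehydrogenase, at -5.84 and -4.18. In the native line Sdhd was at -5.85 when MII replicate 1 was left out and at -3.49 when MII replicate 2 was left out. Sdha, the catalytic subunit of succinate dehydrogenase, and Glud1, glutamate dehydrogenase, were the 2 that rose, by 0.87 and 0.75 and by 1.09 and 1.11. With library totals alone, Sdha stood at -0.07 and -0.16, and Glud1 no longer passed, at 0.15 and 0.19.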

How the data were processed

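Per the labels' protocols, polyadenylated RNA of pooled oocytes was made into libraries with a directional kit and sequenced as 75-base single reads. The authors deposited raw counts of reads per gene. Per the submitters' processing notes, Trimmomatic 0.38, HISAT2 2.1.0, featureCounts 2.0.0, DESeq2 1.30.1 and the mm10 build were used. The sources used here do not give the strand setting of the counting, its annotation, or how reads matching several genes were handled.

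Gene IDs were matched to GENCODE M21 (GRCm38), with 55144 matched and 241 not. Aldoa had a second gene model with at most 2 reads per library, which was not used. In R 4.3.3, edgeR 4.0.16 fitted all 8 libraries in 4 groups with TMM scaling after filterByExpr (minimum count 10), leaving 4 residual degrees of freedom and a common biological coefficient of variation of 0.243. The quasi-likelihood test gave p-values adjusted by Benjamini-Hochberg over 14929 genes, called under 0.05. With 2 libraries per group, p-values measure the spread between these pools. SE is the log2 fold change divided by the square root of F. CPM uses TMM-scaled totals and is not corrected for length unless given per kb of merged exons. The test of MII over GV was tested on simulated counts with known changes.

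The members and gene lists were chosen with earlier results of these data known. Values in every library were given, in each role group, for up to 3 genes per direction with the largest mean change among those called in both lines and for the most abundant one, for a fixed list (Gapdh, Pkm, Ldha, Ldhb, Hk1, Pdha1, Pdk1, Cs, Idh3a), for the 3 smallest p in comparisons of the lines, and, of other pathway genes, for up to 2 per direction. Pfkl, Pfkm, Pfkp, Pgk1, Pgd, Pdhb, Dlat, Pdhx, Pdk3, Idh2, Suclg1, Sucla2, Suclg2 and Fh1 were described to account for every member. Alternatives were DESeq2 1.42.0, other scalings and filters, a replicate block and leaving out each library. Of the genes and sequences that these rules name, 1 gene and 1 sequence are not reported here.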

Additional observations from a re-analysis of the deposited data

How the results depend on the processing

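Of 84 member values (42 members in 2 lines), all kept their direction and call with DESeq2. With library totals in place of TMM scaling 14 reversed, and among the values that kept their direction 5 calls were lost and 13 were gained. Calls also changed among the reversed values, of which Pdhx in sex-converted oocytes and Cs in both lines had been called higher. Higher members in sex-converted oocytes then numbered 6 in place of 11, and lower members in native oocytes 29 in place of 18. All genes called higher numbered 2372 in place of 4374 in sex-converted and 2488 in place of 4414 in native oocytes. The reversed log2 fold changes in sex-converted oocytes were -0.53 for Hk1, -0.74 for Pfkl, -0.80 for Ldhb, -0.83 for Dlat, -0.36 for Pdhx, -0.45 for Pdk3, -0.25 for Cs, and -0.68 for Idh3a. In native oocytes they were -0.79 for Pfkl, -0.91 for Ldhb, -0.51 for Pdhx, -0.66 for Pdk3, -0.34 for Cs, and -0.89 for Idh3a. Among the other pathway genes, which are not members, 3 reversed, namely Pdha2 at -0.076 in sex-converted oocytes, and Sdha at -0.068 in sex-converted and -0.16 in native oocytes. The summed levels with library totals were added after seeing the data. This follows from the scaling, since TMM factors were 0.714 to 0.733 at MII and 1.33 to 1.43 at GV. Native Ldhb and Idh3a, both near 0, also turned to -0.090 and -0.071 with no filter on low counts and to -0.073 and -0.055 with a mean of at least 50 reads.

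Leaving out 1 library kept all 17 lower members lower in both lines and gave 9 to 11 higher ones. It reversed uncalled values only, which ranged over -5.05 to 2.47 for Hk1, -0.10 to 0.64 for Pfkl, -3.09 to 5.3 for Aldoc, -0.61 to 0.045 for Pgk1, -0.35 to 0.14 for Pdhb, -0.00125 to 0.20 for Dlat and -0.23 to 0.11 for Sucla2 in sex-converted oocytes. In native oocytes they ranged over -1.99 to 2.42 for Hk1, -0.14 to 0.46 for Pfkl, -1.07 to 0.28 for Ldha, -0.14 to 0.18 for Ldhb and -0.046 to 0.046 for Idh3a.

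Libraries with the same replicate number did not deviate alike (correlations of deviations from -0.443 to 0.171). The -0.443 was between the sex-converted and native GV groups, where replicate 1 of each line deviated more like replicate 2 of the other. What these GV libraries shared was not tested. The replicate block turned Hk1 in sex-converted oocytes to -0.38 and changed no member's call. Between the lines, where 1 gene was called higher and 1 lower at each stage, counts of all genes were small under every setting. At GV they were 7 higher and 6 lower with no filter, 4 higher with DESeq2, 0 higher with only the 4 libraries, and 0 to 2 higher and 1 to 2 lower with 1 library left out. A replicate block on the 4 GV libraries gave 3 and 4, and one with crossed numbers, added after seeing the data, 18 and 5. At MII they were 9 higher and 25 lower with no filter, 2 and 2 with DESeq2, 0 and 0 with library totals, with a mean of at least 50 reads or with the replicate block, 0 lower with only the 4 libraries, and 0 to 1 higher and 0 to 3 lower with 1 library left out. For the interaction no filter gave 1 higher and 2 lower, in place of 0. The cause was not tested. With the length of the longest transcript in place of merged exons, the mean shares of Pfkl were 89.3% and 57.0% at sex-converted MII and GV and 89.6% and 54.9% at native MII and GV. Members with under 1.2 CPM at MII limit the precision of the largest falls.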

Other observations

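Some genes of the same pathways, picked after their values were seen, are better known from other cells. Bpgm, which makes the bisphosphoglycerate that tunes haemoglobin in red cells, was at 4502 and 4886 CPM in sex-converted MII libraries against 1333 and 1311 CPM at GV, and at 5266 and 4839 CPM in native MII libraries against 1305 and 1522 CPM at GV. The stages stood apart in both lines. Per kb of merged exons (3588 bases for Bpgm and 1570 for Ldhb) it stayed below Ldhb in every library. It averaged 1308 CPM at sex-converted MII, 369 at sex-converted GV, 1408 at native MII and 394 at native GV. In CPM not corrected for length, Bpgm at 4502 to 5266 was above Ldhb at 2348 to 2696 in the MII libraries. At GV it was below Ldhb, which had 2225 to 2844 CPM. The order of the 2 genes at MII thus depends on the correction for length. It also depends on the length used, the longest transcripts being 2220 bases for Bpgm and 1304 for Ldhb. The log2 fold changes of Bpgm, MII over GV, were 1.83 (SE 0.14) and 1.84 (SE 0.14). Hba-a1, Hba-a2 and Hbb-bt, globins of red cells, had 0 reads in every library, and Hbb-bs had 1 read in 1 GV library.

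Pdha2, Ldhc and Tktl2 are known for expression in male germ cells. Pdha2, an intronless counterpart of Pdha1, was at 13.3 and 15.5 CPM in sex-converted MII libraries against 8.29 and 7.55 CPM at GV, and at 15.2 and 15.7 CPM in native MII libraries against 7.41 and 7.18 CPM at GV. It was higher at MII by 0.86 and 1.08 on the log2 scale, but at -0.08 and 0.17 with library totals alone. Its sex-converted call was lost without MII replicate 2 (0.74), GV replicate 1 (0.94) or GV replicate 2 (0.83). Ldhc was at 2.41 and 1.33 CPM in sex-converted MII libraries against 22.0 and 12.8 CPM at GV, and at 0.955 and 1.85 CPM in native MII libraries against 6.29 and 9.01 CPM at GV. Its log2 fold changes were -3.22 (SE 0.48) and -2.46 (SE 0.49), and the difference between lines at GV, 1.19 on the log2 scale (unadjusted p = 0.0154 in edgeR's test), had an adjusted p of 1.0. Tktl2 was at 39.2 and 43.2 CPM in sex-converted MII libraries against 11.8 and 14.9 CPM at GV, and at 36.8 and 39.6 CPM in native MII libraries against 11.9 and 10.9 CPM at GV. These genes were thus read in oocytes of both lines.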
